A study of Xiphophorus maculatus x Xiphophorus hellerii with 32 samples.

Results

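CRY2, CSNK1A1 and CUL4B are 3 of the 20499 transcript rows of a count table made from melanoma and skin of Xiphophorus backcross fish, a cross of platyfish and swordtail. They were chosen by name, as the rows whose identifier without its prefix and suffix is one of these 3 symbols, and each symbol had 1 row. The tumor group held 16 libraries of spontaneous melanoma. The skin group held 16 libraries of skin. All came from first-generation backcross (BC1) hybrids of Xiphophorus maculatus with Xiphophorus hellerii, the Gordon-Kosswig cross, at an age of 9 months. For 14 fish both skin and melanoma were sequenced, so their skin libraries are from tumor-bearing hybrids. The fish titled 11949q and 11960b had a skin library and no tumor library assigned to them. There was no group labelled as tumor-free fish or as either parental species. No source used here gives the hour of dissection.

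The 3 genes belong to protein systems that meet in the turnover of regulators. CRY2 is a cryptochrome, a nuclear protein that in mammals joins the PER proteins to repress the activator pair CLOCK and BMAL1 and so closes the circadian feedback loop. In zebrafish, several cryptochromes exist and clocks in peripheral tissues respond to light directly. CSNK1A1 encodes casein kinase 1 alpha, which in the beta-catenin destruction complex adds the priming phosphate that leads to beta-catenin breakdown. Its loss from mouse epidermis activates p53 and darkens the skin. CUL4B is the cullin scaffold of a ubiquitin ligase that holds DDB1 and substrate receptors at one end and RBX1 at the other, with known roles in DNA repair and replication.

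Total counts ranged from 2578877 to 6977222 in tumor and from 4239036 to 6673975 in skin. A fish is named here as in its title, for example 11949h, by digits that several fish share, called the title number, and a letter of its own. What the title number marks is not stated. Both tissues were available from 14 fish. The column 60bTu fitted no tumor title: its name resembles that of fish 11960b, which has a skin library, while the tumor title left without a column reads 11969b. That library entered the tumor group and no pair. Xmrk, the receptor tyrosine kinase gene that drives these melanomas, lay between 130 and 1162 CPM (the counts scaled to a common library size) in tumor and between 25.7 and 110 CPM in skin, with the tumor above the skin in 14 of 14 fish. Of the lists of marker genes for pigment cells, keratinocytes, muscle, blood and immune cells and fibroblasts, 0 genes matched a row with a symbol, so the tissue labels could not be checked further and the cell make-up of the libraries was not tested. Only 30 of the 20499 rows carried a gene symbol, so a listed gene without a match may still be among the unnamed rows. In bulk tissue, fewer cells of a type and less RNA per cell cannot be told apart.

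CRY2 levels in tumor and skin largely coincided. In tumor it ranged from 5.88 to 20.9 CPM with a median of 13.9, and in skin from 8.72 to 28.7 CPM with a median of 13.5. The groups overlapped over most of their range. The mean was 14.2 ± 4.87 CPM in tumor and 14.7 ± 5.30 CPM in skin (SD, n = 16 each). The log2 fold change of tumor over skin was -0.05 (SE 0.19, 95% interval -0.43 to 0.32), which did not pass in edgeR's quasi-likelihood test over 14542 rows (adjusted p = 0.871). Of all rows, 23.5% passed that test at an adjusted p of 0.05, and of the 3 genes described here 0 did (edgeR unadjusted p 0.771 for CRY2, 0.112 for CSNK1A1 and 0.175 for CUL4B; DESeq2, which called 26.1% of rows, also called 0 of them). These fits treated the skin and tumor libraries of a fish as independent. With the fish as a block, the log2 fold change of CRY2 was -0.04 (SE 0.11, 95% interval -0.26 to 0.18). It did not pass there either (edgeR adjusted p = 0.768, where 46.2% of rows passed). Within fish, CRY2 was higher in tumor in 9 of 14, a count that 41.1% of all rows reached or exceeded. The sign of the fitted change depended on scaling, and with total counts in place of composition-corrected library sizes its log2 fold change was 0.09.

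CSNK1A1 averaged 343 ± 63.6 CPM in tumor and 298 ± 77.3 CPM in skin (SD, n = 16 each). In tumor it ran from 255 to 475 CPM with a median of 321, and in skin from 210 to 511 CPM with a median of 281. The groups overlapped, and the single highest value of all 32 libraries was in the skin of 11949a. The log2 fold change was 0.20 (SE 0.12, 95% interval -0.05 to 0.45, edgeR adjusted p = 0.259). Within fish the direction was nearly uniform: the tumor level was above the skin level in 13 of 14 fish, with a median fold of 1.17 and the lowest fold, 0.599, in 11949a. Of all tested rows, 12.6% were higher in tumor in at least 13 of the 14 fish.

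Whether CSNK1A1 passed within fish depended on 11949a. The fit with the fish as a block gave a log2 fold change of 0.18 (SE 0.10, edgeR adjusted p = 0.137), where 46.2% of rows passed. Without the fish 11949a it was 0.24 (SE 0.08, edgeR adjusted p = 0.0145), in a fit where 47.8% of rows passed. This omission was chosen after its values were seen. An exact sign-flip permutation test over the 14 fish gave a mean log2 difference of 0.20 ± 0.32 (SD; two-sided p = 0.0366, adjusted over all rows p = 0.0709), where 47.3% of rows passed.

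The value of 511 CPM in the skin of 11949a depended on scaling. The library had 1605 CSNK1A1 reads of 4239036, the lowest total among skin libraries, and a TMM factor of 0.743. TMM is edgeR's correction of library size for composition. The skins of 11949l and 11949g had factors of 0.741 and 0.784, and 210 and 277 CPM of CSNK1A1. In tumor the factor was 1.21 in 11949a, the highest of all libraries, 0.769 in 11949l and 1.14 in 11949g. The skin and tumor of 11949a were thus scaled in opposite directions. By total count alone CSNK1A1 had 370 CPM in the tumor of 11949a and 379 CPM in its skin, and tumor was higher in 13 of 14 fish there too. The share of all rows that reached this count by total count was not computed. With total counts in place of TMM the log2 fold change of CSNK1A1 was 0.37 (edgeR adjusted p = 0.0452, where 25.1% of rows passed), while the fold changes of all rows moved up by a median of 0.16. The part of composition in the high skin value and in the low ratio of 11949a was not tested.

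CUL4B averaged 48.2 ± 8.67 CPM in tumor and 43.8 ± 5.36 CPM in skin (SD, n = 16 each). Tumor values lay between 37.9 and 69.9 CPM with a median of 45.1, and skin values between 34.7 and 56.5 CPM with a median of 44.8. The medians were close and the tumor group reached further up, with 11960a and 11949a highest. The log2 fold change was 0.14 (SE 0.10, 95% interval -0.06 to 0.34, edgeR adjusted p = 0.351). It was higher in tumor in 10 of 14 fish, a count that 33.7% of all rows reached or exceeded. With total counts alone the log2 fold change was 0.30 (edgeR adjusted p = 0.0810), by the same upward shift of all rows.

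**Figure D1:**
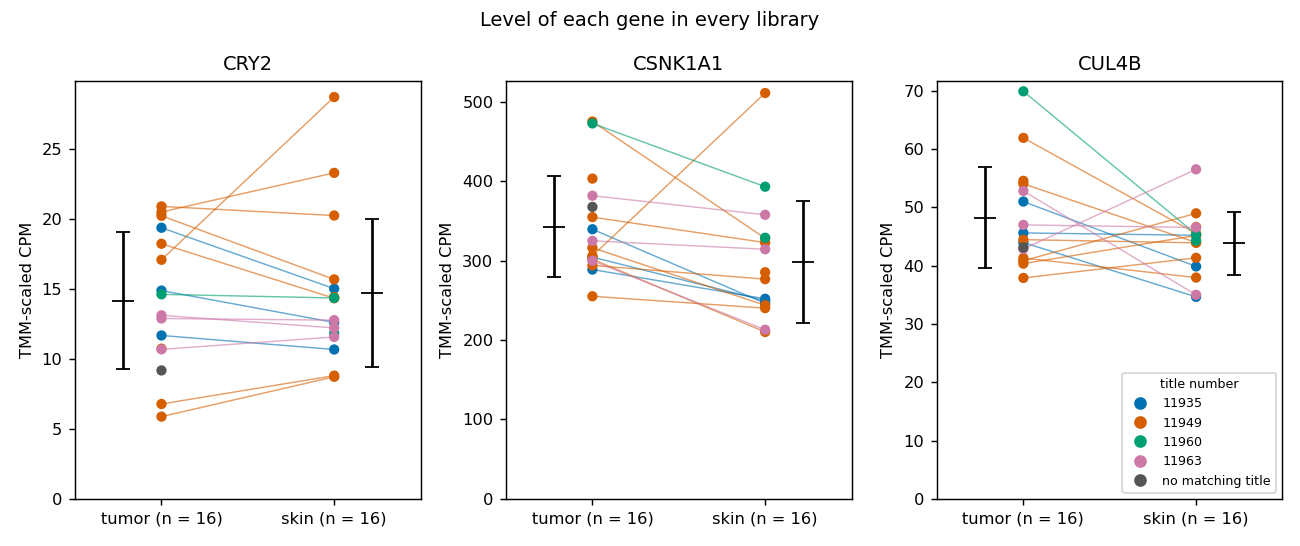
TMM-scaled CPM of CRY2, CSNK1A1 and CUL4B in every tumor and skin library, with lines joining the libraries of a fish, colours for the title number, and black bars for the mean ± SD (n = 16 each). The tissues overlap for each gene, CSNK1A1 is lower in tumor than in skin only in 11949a, and CUL4B lies in a narrow band in skin, from 34.7 to 56.5 CPM.

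Counting error sets how far single fish can be read. CRY2 rested on 35 to 129 reads per tumor library and 39 to 199 per skin library. The lowest level, 5.88 CPM in the tumor of 11949b, had a 95% interval of 4.16 to 8.07 (exact Clopper-Pearson, which covers counting error only). The 95% counting interval of the tumor-over-skin ratio excluded 1 for CRY2 in 1 of 14 fish, 11949h, where the ratio was 0.595 (0.469 to 0.752). For CSNK1A1, with 747 to 2880 reads in tumor and 858 to 2505 in skin, the interval lay above 1 in 10 fish and below 1 in 1. For CUL4B, with 111 to 435 reads in tumor and 143 to 396 in skin, it lay above 1 in 6 fish and below 1 in 1, 11963a, where the ratio was 0.758 (0.645 to 0.890). The largest CUL4B ratios were 1.54 in 11960a and 1.51 in 11963g. By total count alone the largest ratios were in 11949a, 2.22 for CUL4B (1.36 with TMM) and 2.07 for CRY2 (1.27 with TMM). CRY2 was then higher in tumor in 8 of 14 fish and CUL4B in 12 of 14, without the share of all rows at these counts, which was not computed for this scaling. The counting intervals leave out scaling and biological error, and each fish has 1 library per tissue.

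**Figure D2:**
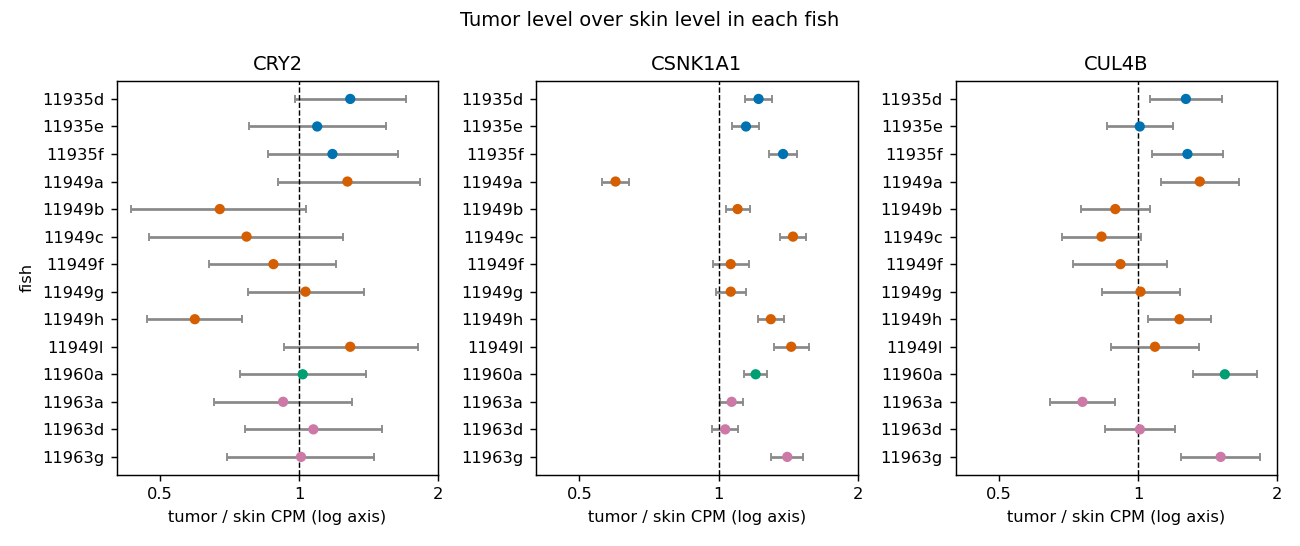
Tumor CPM over skin CPM, both TMM-scaled, in each of the 14 fish on a log axis, with exact 95% counting intervals that leave out scaling error. A dashed line marks equal levels. CSNK1A1 is above the line in 13 fish and at 0.599 in 11949a, while the CRY2 intervals are wide and exclude equality only in 11949h.

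The comparison was repeated within title numbers. In 11949 (8 libraries per tissue) the log2 fold changes were -0.18 for CRY2, 0.14 for CSNK1A1 and 0.07 for CUL4B, in 11935 (3 per tissue) 0.25, 0.31 and 0.22, and in 11963 (3 per tissue) 0.04, 0.21 and 0.07 in the same order of genes. None of these 9 values passed in edgeR (adjusted p from 0.654 to 0.9997). None passed with the fish as a block either, where 27.7% of all rows passed in 11949, 10.1% in 11935 and 7.87% in 11963, or in DESeq2, where 16.9% passed in 11949 and 4.4% in 11963. The edgeR fits called 12.7% of all rows in 11949, 0% in 11935 (0 rows, with 1746 at an unadjusted p below 0.05; DESeq2 called 4.09%) and 0.399% in 11963. CSNK1A1 was higher in tumor in 6 of 7 fish of 11949, 3 of 3 of 11935, 3 of 3 of 11963 and the 1 fish of 11960. CRY2 was higher in 3 of 7 fish of 11949, 3 of 3 of 11935, 2 of 3 of 11963 and the 1 fish of 11960. CUL4B was higher in 4 of 7, 3 of 3, 2 of 3 and 1 of 1 in the same order. The difference between title numbers, tested as an interaction with the fish as a block, had edgeR unadjusted p of 0.351 for CRY2, 0.807 for CSNK1A1 and 0.698 for CUL4B (adjusted p from 0.897 upward; 0% of rows passed, with 868 at an unadjusted p below 0.05, and 0 also without the block).

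Levels of the 3 genes were also compared between title numbers within a tissue. In tumor, CRY2 averaged 15.3 ± 3.86 CPM in 11935 (SD, n = 3), 12.2 ± 1.34 CPM in 11963 (n = 3) and 15.0 ± 6.28 CPM in 11949 (n = 8). In skin it averaged 12.8 ± 2.18, 12.2 ± 0.601 and 16.8 ± 6.95 CPM in the same order. The spread within 11949 covered the means of the others in both tissues. In edgeR 0 of the 3 genes passed in either tissue, with unadjusted p of at least 0.760 in tumor and at least 0.358 in skin, and DESeq2 called 0 of them, where it called 0.574% of all rows in tumor and 0.341% in skin. Of all rows 0.00636% passed in tumor and 0% in skin in edgeR (920 at an unadjusted p below 0.05 in skin).

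CRY2 differed between individual fish, and a fish high or low in one tissue was mostly so in the other. The tumors of 11949b and 11949c had 5.88 and 6.78 CPM, and their skins had 8.72 and 8.81 CPM, so these fish were the lowest of the 14 in each tissue. At the other end, 11949g had 20.9 CPM in tumor and 20.2 CPM in skin, and 11949f had 20.5 and 23.3 CPM. The fish 11949h ranked 6 of 14 in tumor at 17.1 CPM and was highest in skin at 28.7 CPM. Both extremes were fish of 11949, while the 3 fish of 11963 lay close together, at 10.7 to 13.1 CPM in tumor and 11.6 to 12.8 CPM in skin.

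Between the lowest and the highest fish, the log2 CPM averaged over both tissues differed by 1.58 for CRY2, 0.80 for CSNK1A1 and 0.52 for CUL4B, against a median of 2.12 over all tested rows. A joint edgeR test of all fish terms, with tissue in the model, passed for CRY2 (adjusted p = 0.000643), missed the threshold for CSNK1A1 (adjusted p = 0.0520) and was far from it for CUL4B (adjusted p = 0.519). Of all rows 79.4% passed this test, so the call of CRY2 is that of most rows and the missing call of CUL4B is the less usual outcome. Without 11949a CSNK1A1 passed as well (edgeR adjusted p = 0.00810, 81.5% of rows). Within the 7 fish of 11949 CRY2 still passed (edgeR adjusted p = 0.00750, 56% of rows), and CSNK1A1 and CUL4B did not (adjusted p = 0.320 and 0.621, edgeR). The fish share of the variance in the paired libraries was 89.5% for CRY2, 66.3% for CSNK1A1 and 44.7% for CUL4B. The tissue share was 0.0565%, 10.1% and 8.90%, and the remainder 10.4%, 23.6% and 46.4%. The median over all rows was 75.5% for fish and 6.03% for tissue. The fish share has 14 levels and tissue only 2, so these shares do not compare like quantities. With that many levels a fish share can be large without any difference between fish. The share of CUL4B, whose fish test did not pass, therefore does not show an effect of the fish.

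Tumor and skin levels were then correlated across the 14 fish. For CRY2, Pearson's r of log2 CPM was 0.80 (two-sided permutation p = 0.000990, adjusted over 14542 rows p = 0.00272) and Spearman's rho was 0.89 (permutation p = 3e-05, adjusted p = 0.000767). The relation held without the 2 fish farthest from the median skin level, 11949f and 11949h (r = 0.94). It also held without the lowest 2 fish, 11949b and 11949c (r = 0.70, permutation p = 0.0104, adjusted p = 0.0204, 61.8% of rows), an omission chosen after the values were seen. Within the 7 fish of 11949 r was 0.83 (exact permutation p = 0.0313, adjusted p = 0.0947) and rho was 0.61 (exact permutation p = 0.167), where 8.34% of rows passed for Pearson's r. The other title numbers had too few fish for a value of their own. Over all rows 67.7% passed for Pearson's r, the median r was 0.71, and 33.8% of rows had a higher r than CRY2.

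For CSNK1A1, r was 0.50 (permutation p = 0.0667, adjusted p = 0.0904) and rho was 0.62 (permutation p = 0.0212, adjusted p = 0.0365, where 62.8% of rows passed), so the call depended on the measure. The rank call was lost with RLE size factors (rho = 0.58, permutation, adjusted p = 0.0521, 63% of rows) and without 11949b and 11949c (rho = 0.50, permutation, adjusted p = 0.142, 53.4% of rows). The value depended on 11949a as well: r was 0.78 without that fish (permutation p = 0.00125, adjusted p = 0.00310, 70.4% of rows) and 0.69 without 11949a and 11960a, the 2 farthest from the median skin level. With total counts alone r was 0.82 (permutation p = 0.000440, adjusted p = 0.00173, 64.3% of rows). Within 11949 r was 0.29 (exact permutation p = 0.481), a set of 7 fish that includes 11949a.

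For CUL4B a relation was not detectable. Its r was -0.02 (permutation p = 0.949, adjusted p = 0.955) and rho was 0.05 (permutation p = 0.869, adjusted p = 0.883). Of all rows, 97.4% had a higher r. The fish 11963a ranked 10 of 14 in tumor at 42.9 CPM and was highest in skin at 56.5 CPM, and 11963g ranked 4 in tumor at 52.8 CPM and next to lowest in skin. Without the 2 fish farthest from the median skin level, 11935d and 11963g, r was 0.0075, and within the 7 fish of 11949 it was 0.24 (exact permutation p = 0.595). With total counts alone r was 0.37 (permutation p = 0.194, adjusted p = 0.237). The place of CUL4B among all rows moved too, with 84.0% of rows higher within 11949 and 81.7% with total counts. CUL4B also varied little between libraries, as given below, and the part of that in its low r was not tested.

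**Figure D3:**
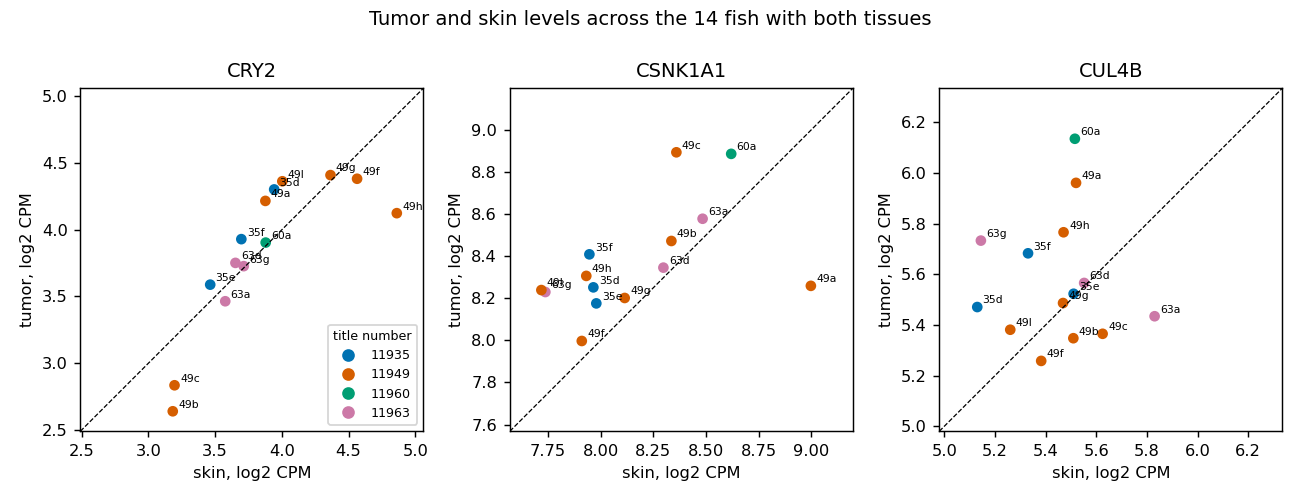
Tumor against skin log2 CPM of the 3 genes in the 14 fish with both tissues, 1 point per fish coloured by title number and named by the last digits of its title, with a dashed line of equal levels. CRY2 levels increase together (r = 0.80) on both sides of the line, with 11949h farthest below it, CSNK1A1 (r = 0.50) lies above the line in 13 fish and below it in 11949a, and CUL4B shows no trend (r = -0.02).

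**Figure D4:**
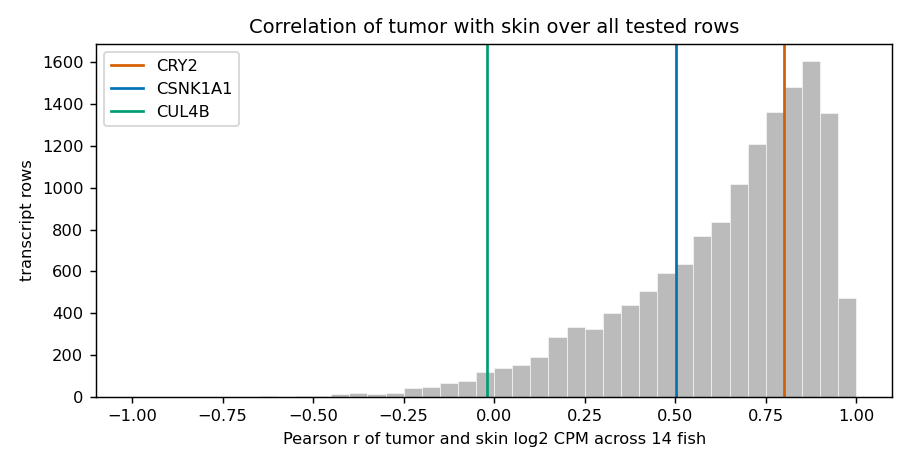
Number of transcript rows by their Pearson r of tumor with skin log2 CPM across 14 fish, in steps of 0.05 over all 14542 tested rows, with vertical lines for the 3 genes. CRY2 at 0.80 lies a little above the median of 0.71, CSNK1A1 at 0.50 near the lower quartile of 0.49, and CUL4B at -0.02 in the lower tail.

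CUL4B had a narrow range in both tissues. The SD of its log2 CPM was 0.24 in tumor and 0.18 in skin, against medians over all rows of 0.72 in each tissue. Only 3 of 14542 rows had a smaller SD in skin, and 190 had a smaller one in tumor. With total counts alone the SD of CUL4B was 0.32 in tumor and 0.28 in skin, and 186 rows had a smaller value in skin, so its rank depends on the scaling while its place among the steadiest few percent does not. CSNK1A1 had an SD of 0.25 in tumor, below which 1.84% of rows lay, and of 0.34 in skin (4.48% of rows). CRY2 had an SD of 0.54 in tumor and 0.45 in skin, with 27.7% and 15.3% of rows below it. These SDs include counting error, and its part in the ranks was not tested.

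The 3 genes were then set against one another across libraries, as 6 relations with Benjamini-Hochberg adjustment over them. In tumor, CRY2 and CSNK1A1 ran in opposite directions over the 16 libraries (r = -0.62, permutation p = 0.0109, adjusted p = 0.0328; rho = -0.66, permutation p = 0.00618, adjusted p = 0.0185). The tumors of 11949b and 11949c, lowest in CRY2, had 355 and 475 CPM of CSNK1A1, and the tumor of 11949f, with 20.5 CPM of CRY2, had the lowest CSNK1A1 level, 255 CPM. The adjusted call did not survive the omission of the 2 libraries farthest in CRY2 (r = -0.55, permutation p = 0.0386, adjusted p = 0.116) or the use of total counts alone (r = -0.26, permutation p = 0.331, adjusted p = 0.414). Within the 8 tumors of 11949 r was -0.81 (exact permutation p = 0.0143, adjusted p = 0.0857) and rho was -0.90 (exact permutation p = 0.00456, adjusted p = 0.0274), so only the rank measure passed. In skin r was -0.32 (permutation p = 0.233, adjusted p = 0.384) and rho was -0.50 (permutation p = 0.0529, adjusted p = 0.0844). Within the 8 skins of 11949 rho was -0.74 (exact permutation p = 0.0458, adjusted p = 0.0917). Whether the 2 tissues differ in this relation was not tested. Over all 32 libraries, with tissue means removed, r of the pair was -0.44. Counted from the most positive r among the 14542 tested rows, CSNK1A1 ranked 13509 for CRY2 and CRY2 ranked 12333 for CSNK1A1, so many other rows ran as strongly against either gene.

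In skin, CSNK1A1 and CUL4B varied together (r = 0.64, permutation p = 0.00801, adjusted p = 0.0328; rho = 0.76, permutation p = 0.00110, adjusted p = 0.00660). The skin of 11949l had 210 CPM of CSNK1A1 and 38.0 CPM of CUL4B, both low, and the skin of 11963a had 358 and 56.5 CPM, both high. An exception was the skin of 11949a, highest in CSNK1A1 at 511 CPM. It had 45.5 CPM of CUL4B, near the skin median of 44.8. The relation held without the 2 skins farthest in CSNK1A1, 11949a among them (r = 0.82, permutation p = 0.000240, adjusted p = 0.00144). With total counts alone r was 0.72 (adjusted permutation p = 0.0112). In that setting r moved up in every relation between the 3 genes, for CRY2 and CUL4B in skin from -0.27 to 0.25. A higher r there is therefore no separate check of this relation. Within the 8 skins of 11949 r was 0.63 (exact permutation p = 0.101, adjusted p = 0.303) and rho was 0.86 (exact permutation p = 0.0107, adjusted p = 0.0321), so again only the rank measure passed. In tumor r was 0.29 (permutation p = 0.268, adjusted p = 0.384), and with total counts alone 0.60 (permutation p = 0.0131, adjusted p = 0.0394), where rho was 0.46 and did not pass (permutation p = 0.0698, adjusted p = 0.209). Over all 32 libraries, with tissue means removed, r of CSNK1A1 and CUL4B was 0.45. Counted from the most positive r among all tested rows, CUL4B ranked 1951 for CSNK1A1 and CSNK1A1 ranked 206 for CUL4B. Many other rows thus ran more closely with either gene. CRY2 and CUL4B showed r of 0.21 in tumor and -0.27 in skin, with adjusted permutation p of 0.432 and 0.384.

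**Figure D5:**
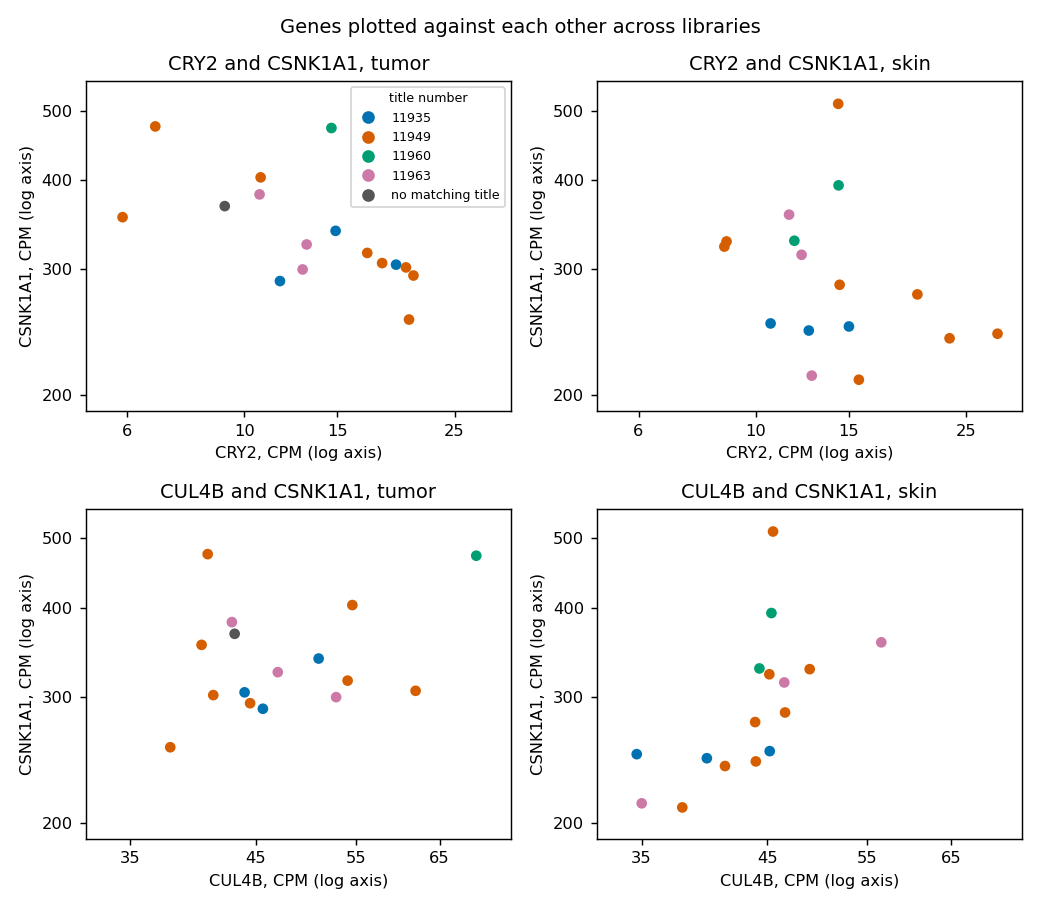
CSNK1A1 against CRY2 (upper row) and against CUL4B (lower row) in tumor (left) and skin (right), 1 point per library on log axes in TMM-scaled CPM, coloured by title number. CSNK1A1 tends to be lower where CRY2 is higher among tumors (r = -0.62, and -0.26 with total counts alone), with exceptions such as 11935e, low in both, and CSNK1A1 and CUL4B increase together among skins (r = 0.64).

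The difference between tumor and skin in a fish was compared with that of Xmrk in the same fish, as 1 relation per tested row. The r over 14 fish was -0.20 for CRY2 (permutation p = 0.492), 0.18 for CSNK1A1 (permutation p = 0.554) and 0.29 for CUL4B (permutation p = 0.316), and rho was -0.14, 0.27 and 0.33. None passed after adjustment over 14541 rows (permutation, adjusted p = 0.99997 for each), and 0.0275% of all rows did. Without 11935d and 11935e, the fish farthest from the median Xmrk difference, r was 0.08, 0.31 and 0.51.

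Likeness of pattern was measured as Pearson's r over the 32 libraries after removal of the tissue means, a description over libraries that share fish. Among the 20 tested rows with a symbol, CRY2 was closest to PRKCB, a protein kinase C gene (r = 0.65), and to FGFR4, a fibroblast growth factor receptor (r = 0.52). CSNK1A1 was closest to AP1M1, a clathrin adaptor subunit (r = 0.71), and to GSTM3, a glutathione S-transferase (r = 0.62). CUL4B was closest to Xmrk (r = 0.45) and to CSNK1A1 (r = 0.45). Among all tested rows, PRKCB and FGFR4 ranked 125 and 663 for CRY2, and AP1M1 and GSTM3 ranked 256 and 656 for CSNK1A1. For CUL4B, Xmrk and CSNK1A1 ranked 192 and 206. Rows without a symbol came closer: the highest r over all rows was 0.99 for CRY2, 0.96 for CSNK1A1 and 0.83 for CUL4B. Those rows have no gene name in the table and are not named here.

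The partners of the 3 genes could not be followed in the same way. Of 31 other clock genes, among them CLOCK, PER1 and CRY1, 24 genes of the beta-catenin destruction complex and its targets, and 26 genes of the CUL4 ligase and its regulators, 0 matched a row with a symbol. With a symbol on only 30 of 20499 rows, these genes may be among the unnamed rows. Levels were not compared between genes, since transcript lengths are not in the files. Fish carry several cryptochrome and casein kinase genes, and how reads shared between near-identical copies or between the parental alleles were counted is not stated.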

How the data were processed

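The submitters' processing notes name GSNAP, a read aligner. No source used here gives its version, the counting program or the genome build. The table deposited by the authors holds unnormalized counts in 20499 transcript rows and 32 library columns, all of them used.

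Tissue and fish were taken from sample titles. Same-fish pairing comes from the titles: deviations from the tissue mean correlated across transcripts at r from 0.450 to 0.778 within fish and from -0.346 to 0.348 between fish. No library repeated another, with a lowest chi-square per degree of freedom of 33.3 over 240 pairs of libraries of a tissue.

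Analyses used R 4.3.3 and edgeR 4.0.16, with TMM scaling, the filterByExpr filter by tissue (14542 rows, all 3 genes included), the quasi-likelihood F-test without a block, and Benjamini-Hochberg adjustment over all rows at 0.05. CPM are TMM-scaled unless stated. Correlations used log2 CPM (prior count 2) with 100000 permutations, or all of them for 7 or 8 libraries. Alternatives included DESeq2 1.42.0, RLE size factors, other filters, the fish as replicate block, and omitted libraries. Steps were tested on simulated data. Figures used matplotlib 3.10.9.

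The 3 genes and the gene lists were chosen with earlier results of these data known. The rule for other named genes took Xmrk, the 2 rows with a symbol most like each gene, and the listed partner genes. Genes and fish named outside it were chosen after their values were seen. Each library is a different fish or tissue, and no fish has repeat libraries of a tissue.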

Additional observations from a re-analysis of the deposited data

Results flagged for a closer look

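Within title number 11949, the most extreme of 7 or 8 values was compared with its nearest neighbour in 11 groups. This marked 3 values, where chance alone gives about 0.55. The skin level of CSNK1A1 in 11949a was 511 CPM, against 328 CPM in the next highest of the 8 skins. In that fish the log2 difference of tumor minus skin for CSNK1A1 was -0.74, and the next lowest of 7 fish had 0.09. Both values use 1 skin library, whose TMM factor was 0.743. The skin of 11949l, lowest in CSNK1A1 of the 8 skins, had a factor of 0.741. The log2 difference also uses the tumor of 11949a, whose factor was 1.21, the highest of all libraries. The tumor of 11949l had 0.769. By total count alone, the skin of 11949a had 379 CPM of CSNK1A1, against 309 CPM in the next highest, that of 11949b. The tumor-over-skin ratio of 11949a was then 0.976, against 1.14 in the next lowest fish of 11949, 11949f. The comparison with the nearest neighbour was not repeated on these values, so both marks hold for TMM scaling only. The shallowest tumor library, that of 11949f, held 2578877 counts, against 4938279 in the next lowest tumor of 11949. It was not the case, in any of 9 comparisons, that all fish of one title number went up and all fish of another went down.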

How the results depend on the processing

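Under the alternatives tried, 123 values kept their direction and side of the threshold, and 31 tests without a direction kept their side. Most of these belong to results that did not pass as reported and stayed so. Another 24 values were SDs with no test, of which that of CUL4B in skin was 0.28 with total counts and 0.18 as reported. In all, 16 values changed sign, 8 newly passed and 5 no longer passed. Of the 5 lost calls, 4 were correlations between the genes and 1 was the correlation of tumor with skin for CRY2. Calls used adjusted p, except in the correlations over fish that left out those farthest from the median. There unadjusted permutation p were compared, for tumor and skin levels of CSNK1A1 0.00945 against 0.0667. Total counts in place of TMM, the blocked fit without 11949a, the sign-flip test, the other scalings of the SDs and the omission of 11949b and 11949c were chosen after the data were seen. Under the replicate block, fitted to the 14 pairs, the log2 fold changes of tumor over skin were -0.04 for CRY2, 0.18 for CSNK1A1 and 0.11 for CUL4B, and the replicate block changed no call of the 3 genes. It called 6740 rows, against 2779 in the same paired libraries without the block and 3419 in all 32 libraries. With total counts the log2 fold change was 0.090 for CRY2 and 0.37 for CSNK1A1. Under the block without 11949a it was 0.24 for CSNK1A1. Leaving out single libraries in 11963 gave -0.031 to 0.14 for CRY2, -0.00038 to 0.39 for CSNK1A1 and -0.11 to 0.26 for CUL4B, and in 11935 it gave 0.050 to 0.41, 0.25 to 0.36 and 0.13 to 0.32. The adjusted p of the fish test of CSNK1A1 was 0.00411 with total counts and 0.00810 without 11949a.

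The correlation of tumor with skin was 0.83 for CRY2 within 11949, a set of 7 fish, where it did not pass (exact permutation, adjusted p = 0.0947). For CSNK1A1 it was 0.82 with total counts, 0.78 without 11949a and 0.69 without the farthest fish. For CUL4B, -0.02 as reported, it was 0.022 with RLE size factors, 0.018 without the 10 most abundant rows, 0.37 with total counts, 0.24 within 11949, 0.0075 without the farthest fish and 0.095 without 11949b and 11949c. The correlation with the Xmrk difference was 0.044 for CRY2 within 11949 and 0.076 without the farthest fish. Between genes in tumor, CRY2 and CSNK1A1 gave -0.26 with total counts, -0.81 within 11949 and -0.55 without the farthest libraries. CRY2 and CUL4B gave -0.10 without the farthest libraries, and CSNK1A1 and CUL4B gave 0.60 with total counts. In skin, CRY2 and CUL4B gave 0.25 with total counts, and CSNK1A1 and CUL4B gave 0.63 within 11949. The cause of these changes was not tested, and only some of these settings had fewer libraries. Among the genes described here, read counts were lowest for CRY2, at 35 to 199 per library. The part of depth in these changes was not tested.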
